A study of Mus musculus with 8 samples.

Results

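The renin-angiotensin system was followed through 7 genes, Ren1, Agt, Ace, Enpep, Agtr1a, Mas1 and Atp6ap2, in the kidneys of wild-type mice and of mice with autosomal dominant polycystic kidney disease. The genes were picked by symbol from 20245 entries measured in every library, and all 7 had a row. The 4 groups were PKD_FP (polycystic kidney, given FP, read from the series design as flavopiridol), PKD_DMSO (polycystic kidney, DMSO), WT_FP (wild-type kidney, flavopiridol) and WT_DMSO (wild-type kidney, DMSO). Each group had 2 libraries, made from poly(A) RNA of whole kidney of C57BL/6 mice. Flavopiridol inhibits cyclin-dependent kinases, among them the kinase that releases paused RNA polymerase II, and DMSO is the solvent. The sources used here do not give the mutated gene, any Cre driver, the dose, the length of treatment or the mice's age. Whether the replicates of a group are different mice is not stated in the labels, and the p-values therefore reflect no more than the spread between these libraries.

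Renin, the aspartyl protease encoded by Ren1, is stored in juxtaglomerular cells, modified smooth muscle cells in the wall of the afferent arteriole of the glomerulus, and cuts angiotensinogen, the product of Agt, into angiotensin I. Angiotensin-converting enzyme (Ace) turns angiotensin I into angiotensin II, which raises blood pressure and drives sodium retention through the type 1 receptor (Agtr1a, the main form in the mouse kidney) and aldosterone. Aminopeptidase A (Enpep) trims angiotensin II to angiotensin III. The receptor Mas (Mas1) responds to a shorter angiotensin peptide. Atp6ap2 encodes the (pro)renin receptor, which is also an accessory subunit of the vacuolar proton pump.

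The starts of 3 of these genes are shown: Ren1, which was lower in every polycystic library, and Agt and Atp6ap2, whose PKD and WT libraries overlapped. Each sequence is the 250 bases before the RefSeq start (GRCm38.p6, 5′ to 3′ on the gene's own strand). Capitals mark TATAAA, the core of a TATA box, CCAAT, which factor NF-Y binds, and TGACG, the first part of a cAMP response element. Both strands were searched, and the second of these reads ATTGG where it lies on the opposite strand.
Ren1 (chr1:133350424-133350673, plus strand): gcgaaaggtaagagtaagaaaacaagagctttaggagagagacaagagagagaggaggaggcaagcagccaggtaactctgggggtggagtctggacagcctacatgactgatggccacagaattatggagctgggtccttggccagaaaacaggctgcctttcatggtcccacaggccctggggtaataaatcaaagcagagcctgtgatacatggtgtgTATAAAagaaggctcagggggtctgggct
Agt (chr8:124569707-124569956, minus strand): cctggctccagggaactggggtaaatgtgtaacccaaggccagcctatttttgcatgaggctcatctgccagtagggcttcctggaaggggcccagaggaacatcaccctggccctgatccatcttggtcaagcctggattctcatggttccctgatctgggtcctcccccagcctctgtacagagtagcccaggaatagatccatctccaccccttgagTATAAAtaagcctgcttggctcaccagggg
Atp6ap2 (chrX:12587509-12587758, plus strand): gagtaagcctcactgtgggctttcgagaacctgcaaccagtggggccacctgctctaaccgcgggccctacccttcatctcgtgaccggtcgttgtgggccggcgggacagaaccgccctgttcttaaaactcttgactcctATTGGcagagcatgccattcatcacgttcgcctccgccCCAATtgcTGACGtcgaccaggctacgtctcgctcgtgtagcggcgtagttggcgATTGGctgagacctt
TATAAA lay 29 to 24 bases before the start of Ren1 and 30 to 25 bases before that of Agt. In Atp6ap2 the window held no TATAAA, but it held CCAAT at 3 positions and TGACG 62 to 58 bases before the start. On either strand, TATAAA was found in 12.4% of 32851 RefSeq windows of that length, CCAAT in 33.8% and TGACG in 17.8%. The motifs do not overlap in these windows. Such matches describe letters only. The table held an entry for 6 of the 7 genes, with Agtr1a the one that did not match.

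Polycystic kidneys had less renin and less type 1 angiotensin receptor RNA than wild-type kidneys, under DMSO and under flavopiridol. Of the 7 genes, 6 reached 1 FPKM in at least 2 libraries and were tested, and Mas1 was not. Under DMSO, 2 of the 6 (Ren1 and Agtr1a) were lower in PKD and 0 were higher (limma on log2(FPKM + 1), Benjamini-Hochberg adjusted p under 0.05 over 14391 genes). Of all genes tested, 22.3% were called in that comparison, 14.8% higher and 7.52% lower. Under flavopiridol the same 2 genes were lower and 0 higher, where 13.9% of all genes were called, 8.71% higher and 5.23% lower. With the genotype difference averaged over both treatments, again Ren1 and Agtr1a were lower and 0 higher, against 34.3% of all genes called, 21.7% higher and 12.6% lower. The median log2 fold change of the 6 genes was −0.80 in this average, where the median of all genes tested was 0.09. Whole-kidney RNA cannot tell fewer cells of a type from less RNA per cell, and this holds for every gene below.

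**Figure D1:**
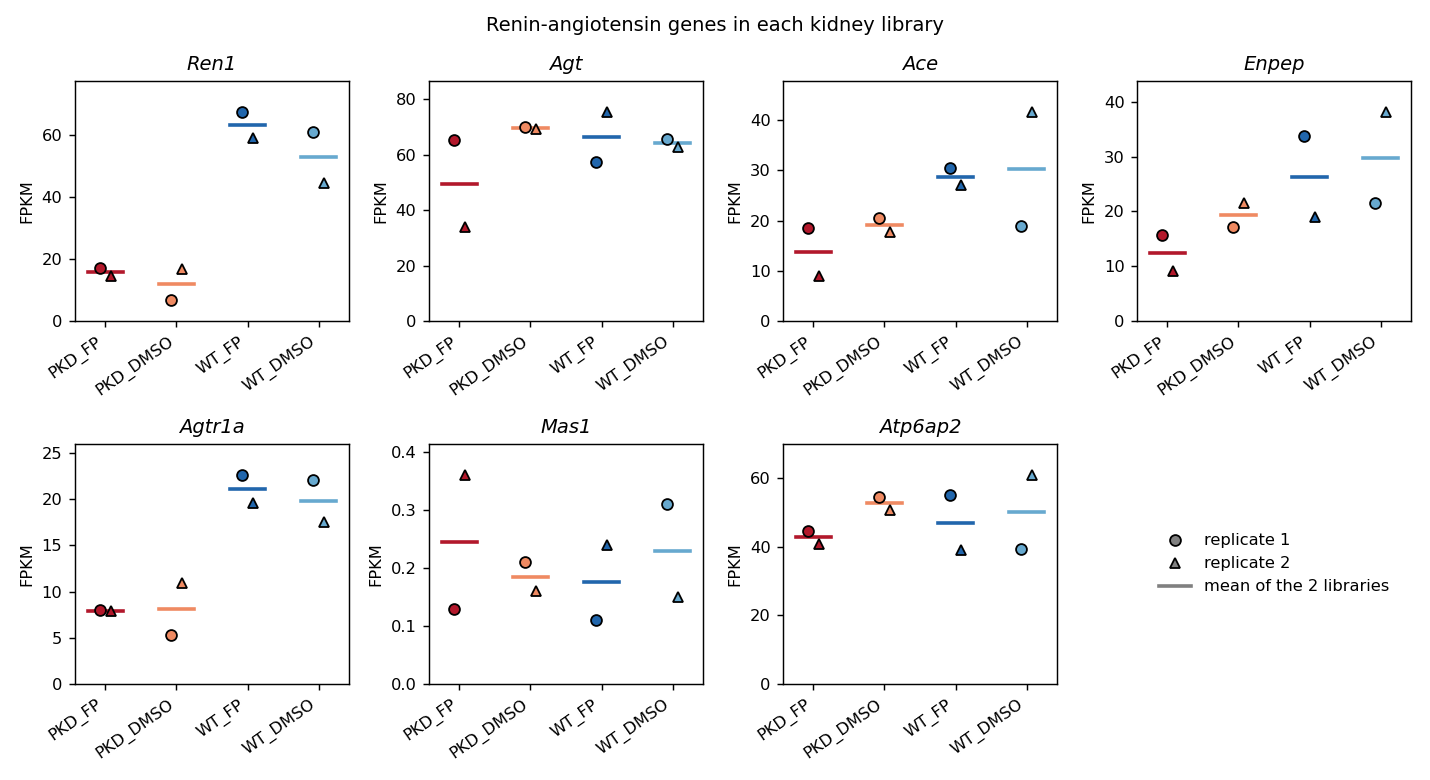
FPKM of the 7 genes in each library on linear axes that start at 0, with replicate 1 as circles, replicate 2 as triangles and the mean of the 2 libraries as a bar, for PKD_FP, PKD_DMSO, WT_FP and WT_DMSO. Ren1 and Agtr1a are separated by genotype, with Ren1 between 6.81 and 17.13 in PKD and between 44.69 and 67.42 in WT, while the PKD and WT libraries overlap for the other 5 genes.

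Angiotensinogen is made mainly by the liver, and in the kidney by the proximal tubule. Agt (GRCm38.p6 chromosome 8, 124556587 to 124569706) measured 65.14 and 34.00 FPKM in PKD_FP, 69.91 and 69.26 in PKD_DMSO, 57.48 and 75.22 in WT_FP, and 65.50 and 62.60 in WT_DMSO. PKD_FP replicate 2 was the lowest of the 8 libraries, and the other PKD libraries lay within the range of the WT libraries. The log2 fold change of PKD_DMSO over WT_DMSO was 0.12 ± 0.30 (SE; 95% interval −0.59 to 0.83; limma, adjusted p = 0.8). It was −0.47 for PKD_FP over WT_FP (95% interval −1.18 to 0.23; limma, adjusted p = 0.326), and −0.01 without PKD_FP replicate 2. The 2 PKD_DMSO libraries stood above the 2 WT_DMSO libraries by a narrow margin, and with median-of-ratios scaling the difference was −0.032. Of all genes tested, 41.2% stood wholly higher in PKD_DMSO than in WT_DMSO.

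Renin RNA showed the widest separation of the genotypes among the 7 genes. Ren1 (chromosome 1, 133350674 to 133360320) measured 17.13 and 14.62 FPKM in PKD_FP and 6.81 and 16.93 in PKD_DMSO, against 67.42 and 59.27 in WT_FP and 61.19 and 44.69 in WT_DMSO. Every PKD library lay below every WT library, and PKD_DMSO replicate 1 was the lowest of the 8. The mean over the 4 PKD libraries was 13.9 ± 4.84 FPKM and over the 4 WT libraries 58.1 ± 9.62 FPKM (SD, n = 4 each). Averaged over both treatments, Ren1 was 4.15-fold lower in PKD on the FPKM + 1 scale, a log2 fold change of −2.05 ± 0.27 (SE; 95% interval −2.68 to −1.42; limma, adjusted p = 0.00255). This call held in each of 15 alternatives, with log2 fold changes of −2.35 to −1.75 and adjusted p of 0.00179 to 0.0134.

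Within each treatment the renin difference had the same direction and rested on 2 libraries a side. It was −2.17 ± 0.37 for PKD_DMSO over WT_DMSO (95% interval −3.06 to −1.28; limma, adjusted p = 0.0113) and −1.93 ± 0.37 for PKD_FP over WT_FP (95% interval −2.82 to −1.04; limma, adjusted p = 0.0231). The DMSO call ended without WT_DMSO replicate 1 (−1.95, adjusted p = 0.0545), and the size ran from −2.77 without PKD_DMSO replicate 2 to −1.57 without PKD_DMSO replicate 1. The flavopiridol call ended without any 1 of the 4 libraries compared: −1.84 without WT_FP replicate 1, −2.02 without WT_FP replicate 2, −2.04 without PKD_FP replicate 1 and −1.82 without PKD_FP replicate 2, with adjusted p of 0.0588 to 0.121. Ren2, the near-identical second renin gene that some mouse strains carry, ranged from 0 to 0.23 FPKM over the 8 libraries, and reads the authors' counting could have split between the pair cannot be separated here.

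Renin also changed its place among the 7 genes. In both WT groups its mean was second to Agt, whereas it was the fifth of the means in PKD_DMSO and the third in PKD_FP, where it overlapped Ace. Per FPKM of Agt there were 0.263 and 0.43 FPKM of Ren1 in PKD_FP, 0.0974 and 0.244 in PKD_DMSO, 1.17 and 0.788 in WT_FP, and 0.934 and 0.714 in WT_DMSO. Renin made up 3.9% to 12.6% of the summed FPKM of the 7 genes in the 4 PKD libraries and 16.8% to 26.7% in the 4 WT libraries. That sum itself was lower in PKD, at 115.81 to 187.23 FPKM, against 228.86 to 266.81 FPKM in WT.

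The 2 peptidases of the cell surface were lower in PKD on average but did not pass the test. Ace (chromosome 11, 105967948 to 105989964), found on endothelium and on the brush border of the proximal tubule, measured 18.51 and 8.93 FPKM in PKD_FP, 20.60 and 17.65 in PKD_DMSO, 30.40 and 27.09 in WT_FP, and 18.87 and 41.49 in WT_DMSO. WT_DMSO replicate 1 lay between the 2 PKD_DMSO libraries and WT_DMSO replicate 2 above both, whereas both PKD_FP libraries lay below both WT_FP libraries. Under flavopiridol 25.2% of all genes tested lay wholly lower in PKD. The Ace log2 fold change averaged over treatments was −0.81 ± 0.30 (SE; 95% interval −1.52 to −0.11; limma, adjusted p = 0.0752). It passed the test without WT_DMSO replicate 1 (−1.09, adjusted p = 0.0265) and without PKD_FP replicate 1 (−1.06, adjusted p = 0.0444). Under DMSO alone it was −0.53 (adjusted p = 0.393), and 0.015 without WT_DMSO replicate 2.

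Enpep (chromosome 3, 129269177 to 129332749), a brush border enzyme that also marks podocytes in the mouse, had a similar spread. It measured 15.67 and 9.11 FPKM in PKD_FP, 17.20 and 21.51 in PKD_DMSO, 33.74 and 18.93 in WT_FP, and 21.58 and 38.06 in WT_DMSO. Within each treatment both PKD libraries lay below both WT libraries, under DMSO by a narrow margin, but PKD_DMSO replicate 2 exceeded WT_FP replicate 2. Of all genes tested, 24.5% lay wholly lower in PKD under DMSO and 25.2% under flavopiridol. The averaged log2 fold change was −0.79 ± 0.28 (SE; 95% interval −1.44 to −0.13; limma, adjusted p = 0.067), and it passed the test without WT_DMSO replicate 1 (−0.98, adjusted p = 0.0449) or WT_FP replicate 2 (−0.99, adjusted p = 0.0404).

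RNA of other proximal tubule surface proteins moved with these peptidases only in part. Mme, another brush border peptidase gene, ranged from 16.59 to 30.71 FPKM in PKD and from 18.29 to 37.77 in WT, which overlapped. Aqp1 ranged from 184.61 to 381.99 FPKM in PKD and from 183.07 to 343.09 in WT. Both PKD_DMSO libraries (357.46 and 381.99) lay above both WT_DMSO libraries (183.07 and 275.43) for Aqp1. Lrp2 and Cubn, the endocytic receptors megalin and cubilin, summed to 28.29 and 13.31 FPKM in PKD_FP, 41.36 and 38.78 in PKD_DMSO, 95.24 and 51.66 in WT_FP, and 70.99 and 128.09 in WT_DMSO. The libraries lowest in this sum within a group were those lowest in Enpep in PKD_FP, WT_FP and WT_DMSO, but not in PKD_DMSO. Of 14 proximal tubule markers 12 were lower in PKD in the averaged comparison (limma, adjusted p under 0.05), where 12.6% of all genes were lower. The 14 summed to 4730 to 5517 FPKM in PKD_FP, 2648 to 4767 in PKD_DMSO, 22760 to 23700 in WT_FP and 32910 to 33530 in WT_DMSO. Most of that sum in WT was Kap, an androgen-regulated gene, at 15475.17 and 19670.03 FPKM in WT_FP and 26699.61 and 25855.56 in WT_DMSO. Without Kap the other 13 markers summed to 1217 to 1690 FPKM in PKD_FP, 1427 to 2071 in PKD_DMSO, 4032 to 7282 in WT_FP and 6205 to 7676 in WT_DMSO, so the genotypes stayed apart and the 2 WT groups overlapped. None of them was at 0 in all libraries, and their part in the Ace and Enpep values was not tested.

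**Figure D2:**
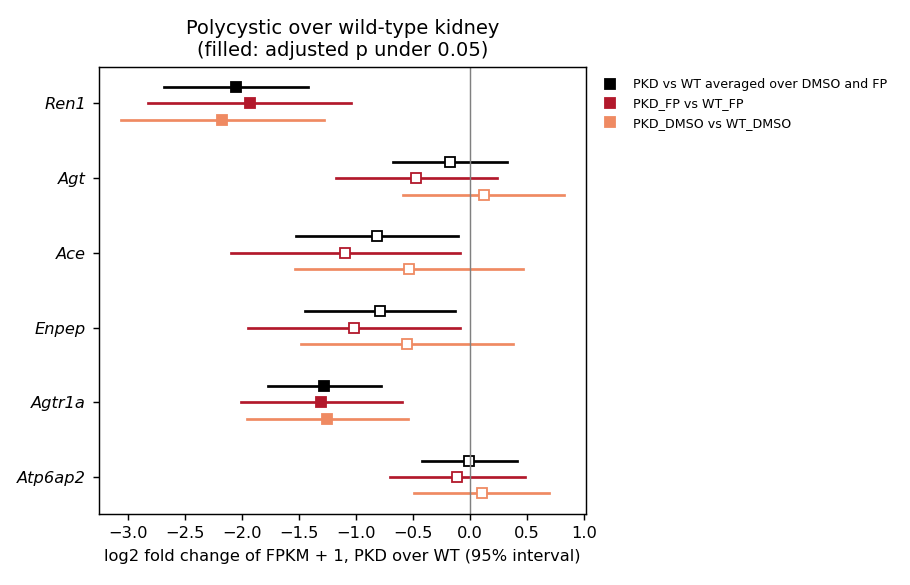
Log2 fold change of FPKM + 1, PKD over WT, with 95% intervals for the 6 genes tested, averaged over treatments (black), under flavopiridol (red) and under DMSO (orange), with filled squares where the limma adjusted p was under 0.05. The squares of Ren1 and Agtr1a are filled in all 3 comparisons, and the averaged values are −2.05 and −1.28.

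The type 1 receptor was the other gene whose PKD and WT libraries did not overlap. Agtr1a (chromosome 13, 30336356 to 30382867) measured 8.0 and 7.84 FPKM in PKD_FP and 5.31 and 10.93 in PKD_DMSO, against 22.60 and 19.57 in WT_FP and 22.02 and 17.49 in WT_DMSO. PKD_DMSO replicate 1 was the lowest library, as for Ren1, and PKD_DMSO replicate 2 the highest of the PKD libraries. Averaged over treatments it was 2.42-fold lower in PKD on the FPKM + 1 scale, a log2 fold change of −1.28 ± 0.21 (SE; 95% interval −1.78 to −0.78; limma, adjusted p = 0.00545). The call held in each of 15 alternatives, at −1.51 to −1.05 with adjusted p of 0.00332 to 0.023. Among all genes tested, the 4 PKD libraries lay wholly above the 4 WT libraries for 22% and wholly below for 11.7%.

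Within each treatment the Agtr1a call depended on single libraries. Under DMSO it was −1.25 ± 0.30 (limma, adjusted p = 0.0283), and the call ended without WT_DMSO replicate 1 (−1.09, adjusted p = 0.11), WT_DMSO replicate 2 (−1.41, 0.0654), PKD_DMSO replicate 1 (−0.79, 0.0719), PKD_FP replicate 1 (−1.25, 0.0512) or PKD_FP replicate 2 (−1.25, 0.0508). Without PKD_DMSO replicate 2 it was −1.71. With only the groups compared the call also ended (0.0699). Under flavopiridol it was −1.30 ± 0.30 (limma, adjusted p = 0.0349), and the call ended without WT_FP replicate 1 (−1.20, adjusted p = 0.158), WT_FP replicate 2 (−1.40, 0.0773), PKD_FP replicate 1 (−1.32, 0.114) or PKD_FP replicate 2 (−1.29, 0.147), and also without the filter (0.0542). The closely related Agtr1b stayed at or below 0.08 FPKM and the type 2 receptor Agtr2 at or below 0.29 FPKM in every library.

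Mas1 (chromosome 17, 12838841 to 12868150) was near the lower end of what these libraries resolve. It measured 0.13 and 0.36 FPKM in PKD_FP, 0.21 and 0.16 in PKD_DMSO, 0.11 and 0.24 in WT_FP, and 0.31 and 0.15 in WT_DMSO. The groups overlapped throughout, and no fold change was fitted. A low range of FPKM was set beforehand, and 3 to 10 of 34 olfactory receptor genes (median length of the 34, 936 bp) fell in it per library. The commonest value in that range was 0.06 to 0.08 FPKM. Taken as 1 read, and with Mas1 transcripts of 1670 to 2401 bp, the Mas1 values would correspond to about 2.8 to 13.2 reads a library. This is a rough figure, since the files give no read numbers.

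The (pro)renin receptor gene did not pass the test in any comparison. Atp6ap2 (chromosome X, 12587759 to 12617051) measured 44.77 and 40.95 FPKM in PKD_FP, 54.59 and 50.79 in PKD_DMSO, 55.06 and 38.99 in WT_FP, and 39.39 and 60.96 in WT_DMSO. The WT libraries held both the lowest and the highest values. The log2 fold change of PKD_DMSO over WT_DMSO was 0.10 ± 0.25 (95% interval −0.49 to 0.69; limma, adjusted p = 0.796), which became −0.049 under median-of-ratios scaling and −0.21 once WT_DMSO replicate 1 was left out. Agt had the highest mean of the 7 genes in every group, and Atp6ap2 came next in both PKD groups and after Ren1 in both WT groups. Agt and Atp6ap2 overlapped in PKD_FP, Ren1 and Agt in WT_FP, and Ren1, Atp6ap2, Ace, Enpep and Agtr1a overlapped with their neighbours in that order in WT_DMSO.

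Comparing flavopiridol with DMSO within a genotype asks whether the drug moved these genes. In PKD kidneys 0 of 6 were called, where 0.0139% of all genes were (0.00695% higher and 0.00695% lower), and 2804 of 14391 genes had an unadjusted p under 0.05. In WT kidneys 0 of 6 were called, where the share over all genes was 0% and 183 genes had an unadjusted p under 0.05. For the interaction of genotype and drug 0 of 6 were called, with 0% of all genes called and 1616 at an unadjusted p under 0.05 (limma throughout). In PKD the drug comparison gave log2 fold changes of 0.51 for Ren1 (95% interval −0.38 to 1.40; limma, adjusted p = 0.486) and 0.04 for Agtr1a (95% interval −0.66 to 0.74; adjusted p = 0.956). The Ren1 value rested on PKD_DMSO replicate 1, and without that library it was −0.091 and the Agtr1a value −0.42. With median-of-ratios scaling the Agtr1a value was −0.022.

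Both PKD_FP libraries lay below both PKD_DMSO libraries for Agt, Atp6ap2 and Enpep, while over all genes tested 31.4% lay wholly above and 25.2% wholly below. The log2 fold changes were −0.55 for Agt (95% interval −1.26 to 0.15; limma, adjusted p = 0.352), −0.29 for Atp6ap2 (adjusted p = 0.546) and −0.64 for Enpep (adjusted p = 0.408). The Ace value was −0.53 (adjusted p = 0.519). PKD_FP replicate 2 was the lowest of the 8 libraries for Agt, Ace and Enpep, and it was also lowest in the Lrp2 and Cubn sum. In WT kidneys the libraries of both treatments overlapped for all 7 genes, where 16.6% of all genes tested lay wholly above and 5.32% wholly below. Ren1 gave 0.27 there (95% interval −0.62 to 1.16; limma, adjusted p = 1). The Ren1 interaction was 0.24 (95% interval −1.02 to 1.5; adjusted p = 0.905), and −0.36 without PKD_DMSO replicate 1.

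Further genes of the angiotensin pathway were read from a longer list. Of 20 further receptors, peptidases and related genes, 18 had a row and 12 were tested, and in the averaged genotype comparison 3 were higher and 3 lower in PKD (limma, adjusted p under 0.05), where 21.7% of all genes were higher and 12.6% lower. Under DMSO 2 were higher and 1 lower, where 14.8% of all genes were higher and 7.52% lower. Under flavopiridol 0 were higher and 1, Klk1, was lower, where 8.71% of all genes were higher and 5.23% lower. The median log2 fold change of the 12 genes in the averaged comparison was 0.22, against 0.09 for all genes. Klk1, tissue kallikrein of the distal nephron, which releases vasodilator kinins, measured 508.26 and 441.38 FPKM in PKD_FP and 536.96 and 371.31 in PKD_DMSO, against 3089.33 and 2835.35 in WT_FP and 3418.58 and 3535.27 in WT_DMSO. It was 6.96-fold lower in PKD, a log2 fold change of −2.80 ± 0.15 (SE; limma, adjusted p = 0.000275), and the PKD and WT libraries stood far apart. Reads from the Klk1b family, whose members are close copies, could be shared with it.

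Dpp3, a cytosolic peptidase that degrades angiotensin II, went the other way. It measured 22.14 and 21.45 FPKM in PKD_FP and 33.70 and 33.81 in PKD_DMSO, against 17.70 and 17.56 in WT_FP and 17.87 and 19.61 in WT_DMSO, and was 1.47-fold higher in PKD on average (log2 fold change 0.55 ± 0.09; limma, adjusted p = 0.00468). It was 0.82 under DMSO (adjusted p = 0.00765; call ended without PKD_DMSO replicate 2, at 0.82, adjusted p = 0.0657) and 0.29 under flavopiridol (adjusted p = 0.163, not called). The interaction was −0.53 (adjusted p = 0.406). Prep and Nln, peptidases that can release a vasodilator heptapeptide from angiotensin I, were higher, with log2 fold changes of 0.64 and 0.55. Lower were Anpep, which trims angiotensin III (log2 fold change −0.73), and the lysosomal carboxypeptidase gene Ctsa (−0.45). The averaged Klk1 and Dpp3 calls held in each of 15 alternatives. The Prep and Nln calls also ended with median-of-ratios scaling (0.52 and 0.44) and quantile normalization (0.52 and 0.43), and the Nln and Anpep calls without the filter. Single libraries ended calls too: Prep without PKD_DMSO replicate 2 (0.62) or PKD_FP replicate 1 (0.58), and Nln without WT_DMSO replicate 1, WT_FP replicate 2 or any PKD library (0.44 to 0.63). The Anpep call ended without WT_DMSO replicate 2, WT_FP replicate 1, PKD_FP replicate 2 or either PKD_DMSO library (−0.80 to −0.56), and the Ctsa call without any library but WT_FP replicate 2 and PKD_DMSO replicate 1 (−0.49 to −0.38).

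The mast cell protease genes Cma1 and Mcpt4 were at or below 0.11 FPKM in every library.

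**Figure D3:**
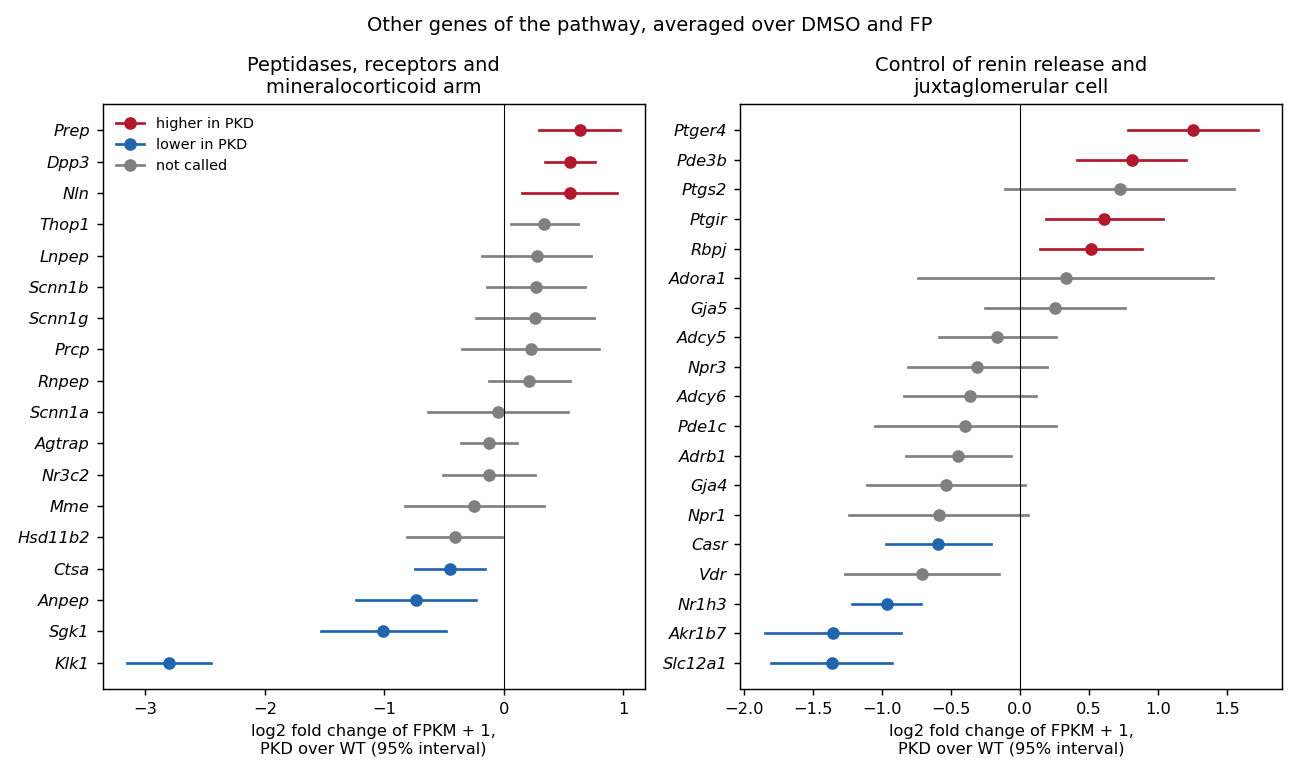
Averaged log2 fold change of FPKM + 1, PKD over WT, with 95% intervals, for the tested genes of the further angiotensin and mineralocorticoid lists (left) and of the renin control list (right), with calls at a limma adjusted p under 0.05 in red (higher in PKD) and blue (lower in PKD). Klk1 at −2.80 lies farthest to the left, and Ptger4 at 1.25 farthest to the right.

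Downstream of angiotensin II, aldosterone acts on the distal nephron through the mineralocorticoid receptor. Of 8 genes of this arm 6 were tested. In the averaged comparison 1 was lower in PKD and 0 higher, where 12.6% of all genes were lower and 21.7% higher. The median log2 fold change of the 6 was −0.09. Sgk1, the kinase that keeps the epithelial sodium channel at the membrane, measured 49.85 and 92.32 FPKM in PKD_FP and 103.41 and 116.74 in PKD_DMSO, against 167.34 and 215.80 in WT_FP and 184.99 and 139.50 in WT_DMSO. Every PKD library lay below every WT library, and the averaged log2 fold change was −1.01 ± 0.22 (SE; limma, adjusted p = 0.0143). It was −0.54 under DMSO (adjusted p = 0.247, not called) and −1.47 under flavopiridol (adjusted p = 0.0289), and the difference between these, the interaction, was −0.93 (adjusted p = 0.491). The flavopiridol call ended without either WT_FP library (−1.65 and −1.29), either PKD_DMSO library (−1.47) or PKD_FP replicate 1 (−1.03), and with only the groups compared (adjusted p = 0.0698). Scnn1a, the channel's alpha subunit, measured 66.65 and 30.05 FPKM in PKD_FP, 74.37 and 74.50 in PKD_DMSO, 67.17 and 55.25 in WT_FP, and 52.46 and 66.16 in WT_DMSO. Cyp11b2, aldosterone synthase, was listed at 0 in all libraries but WT_DMSO replicate 1 (0.04 FPKM), and 8 adrenal cortex markers summed to 3.75 to 8.79 FPKM. These 8 included Akr1b7, which mouse renin cells express as well. It measured 3.5 to 6.24 FPKM in WT, where the sum was 4.87 to 8.79. In PKD it measured 0.46 to 2.71 FPKM, where the sum was 3.75 to 7.33.

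A further list held genes that control renin release or mark the juxtaglomerular cell. Of 22 genes 19 were tested, and 4 were higher and 4 lower in PKD in the averaged comparison, where 21.7% of all genes were higher and 12.6% lower. The median log2 fold change of the 19 was −0.36. Under DMSO 2 were higher and 3 lower, where 14.8% of all genes were higher and 7.52% lower. Under flavopiridol 1 was higher and 2 lower, where 8.71% of all genes were higher and 5.23% lower. Akr1b7, an aldose reductase relative that mouse renin cells express, measured 1.77 and 2.71 FPKM in PKD_FP and 0.46 and 0.98 in PKD_DMSO, against 4.79 and 6.24 in WT_FP and 5.84 and 3.5 in WT_DMSO. It was lower in all PKD libraries (averaged log2 fold change −1.36 ± 0.21; limma, adjusted p = 0.00428), and PKD_DMSO replicate 1 was again the lowest. Under flavopiridol alone it was −1.01 (adjusted p = 0.0648, not called), and it passed there with median-of-ratios scaling (−1.08) and quantile normalization (−1.12). Per FPKM of Akr1b7 there were 9.68 and 5.39 FPKM of Ren1 in PKD_FP, 14.8 and 17.3 in PKD_DMSO, 14.1 and 9.5 in WT_FP, and 10.5 and 12.8 in WT_DMSO, so this ratio overlapped between the genotypes.

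The other lower genes were Nr1h3, the liver X receptor alpha, a nuclear receptor reported to act on the renin gene (−0.97; limma, adjusted p = 0.00157), Slc12a1, the sodium, potassium and chloride cotransporter of the thick ascending limb and macula densa (−1.37; adjusted p = 0.00294), and the calcium-sensing receptor Casr (−0.59; adjusted p = 0.0288). Higher genes were Ptger4 and Ptgir, receptors for prostaglandins that promote renin release (1.25 and 0.61; adjusted p = 0.00472 and 0.0378), the cyclic nucleotide phosphodiesterase Pde3b (0.81; adjusted p = 0.0114) and the Notch pathway factor Rbpj (0.51; adjusted p = 0.0418). Ptger4 measured 7.45 and 9 FPKM in PKD_FP and 6.45 and 6.50 in PKD_DMSO, against 2.42 and 3.84 in WT_FP and 2.76 and 1.34 in WT_DMSO. The averaged calls of Akr1b7, Nr1h3, Slc12a1, Ptger4 and Pde3b held in each of 15 alternatives. The Casr call ended without WT_DMSO replicate 2, WT_FP replicate 1, PKD_FP replicate 2 or either PKD_DMSO library (−0.60 to −0.46). The Ptgir call ended without any library but WT_DMSO replicate 1 and PKD_FP replicate 2 (0.50 to 0.69), and the Rbpj call without any library but WT_DMSO replicate 1 and WT_FP replicate 2 (0.42 to 0.60). Quantile normalization also ended the Ptgir call (0.49), and leaving out the filter the Rbpj call (0.51).

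Markers of cell types of the vessel wall and glomerulus, and of macrophages, were read beside Ren1 and Agtr1a. The counts of called markers here are from the averaged comparison, where 21.7% of all genes were higher and 12.6% lower. Of 10 endothelial markers 0 were called. The 10 summed to 276.5 to 313.4 FPKM in PKD_FP, 96.06 to 312 in PKD_DMSO, 333.3 to 578.2 in WT_FP and 269.7 to 539.2 in WT_DMSO. PKD_DMSO replicate 1, lowest in Ren1 and Agtr1a, held the lowest endothelial sum. Of 8 podocyte markers 3 were lower and 1 higher in PKD, with sums of 54.43 to 87.44 FPKM in PKD_FP, 46.45 to 99.68 in PKD_DMSO, 92.24 to 128.6 in WT_FP and 103 to 105.3 in WT_DMSO. Of 12 markers of smooth muscle, mesangium and pericytes 3 were higher and 0 lower, with sums of 571.8 to 717.5 FPKM in PKD_FP, 328.4 to 713.3 in PKD_DMSO, 149.8 to 276.7 in WT_FP and 112.2 to 226.4 in WT_DMSO. Acta2 and Tagln, which myofibroblasts express as well, made up most of the PKD sums. Without this pair the other 10 summed to 85.83 to 189.4 FPKM in PKD and 71.88 to 166.2 FPKM in WT, which overlapped. All 9 macrophage markers were higher in PKD, with sums of 605.2 to 1213 FPKM in PKD and 69.82 to 125.6 FPKM in WT. None of these markers was at 0 in every library, and the part of these cell types in the Ren1 and Agtr1a values was not tested. Per FPKM of the endothelial gene Pecam1, Ren1 stood at 0.626 to 0.96 in PKD libraries and 1.58 to 3.32 in WT libraries, without overlap.

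**Figure D4:**
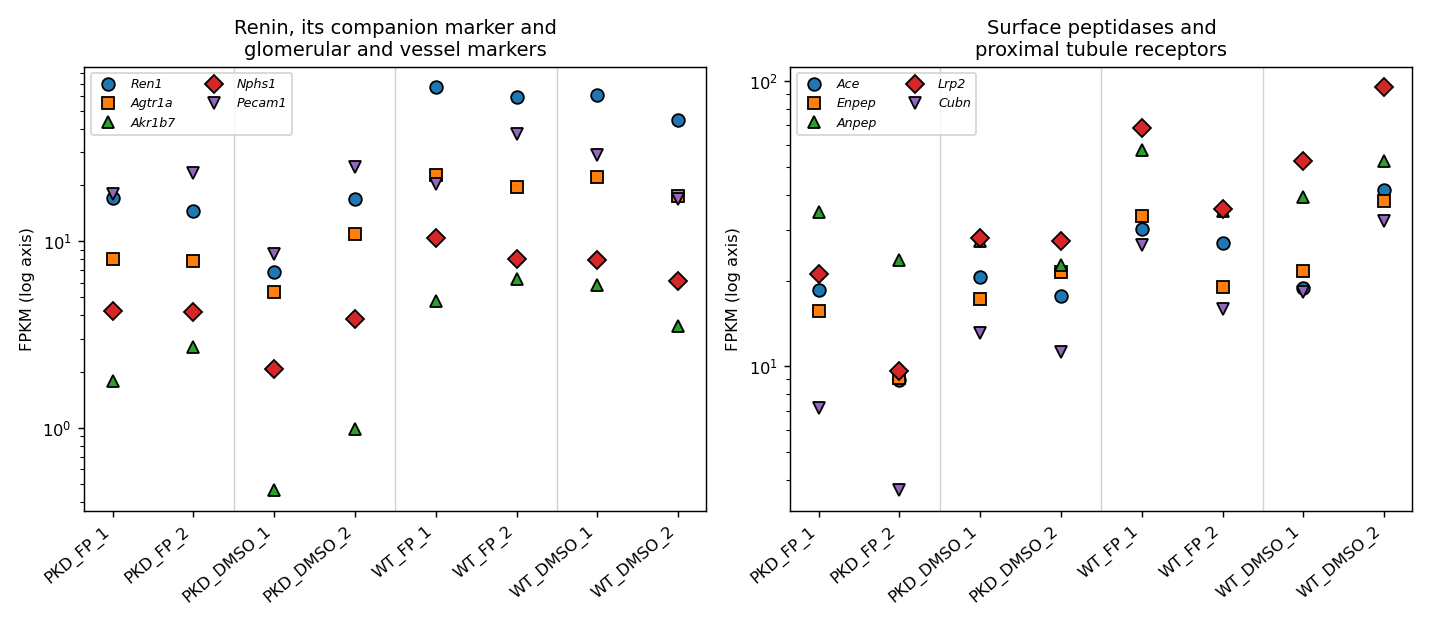
FPKM on log axes in each library, PKD_FP to WT_DMSO from left to right, of Ren1, Agtr1a, the renin cell gene Akr1b7, the podocyte gene Nphs1 and the endothelial gene Pecam1 (left) and of surface peptidases with the proximal tubule receptors Lrp2 and Cubn (right), 1 point a library. Ren1, Agtr1a, Akr1b7 and Nphs1 lie lower in all 4 PKD libraries than in any WT library, while Pecam1, from 8.58 to 24.95 in PKD and 16.89 to 37.41 in WT, overlaps.

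The genes with the most similar profiles over the 8 libraries were listed for 5 of the 7 by Pearson correlation of log2(FPKM + 1), out of 7407 genes. The 8 libraries fall into 2 genotypes and share their groups, so these values are given as a description, without a p. For Ren1 they were Agtr1a (0.986), the junction protein gene Jam3 (0.982) and the podocyte slit gene Nphs1 (0.977), and for Agtr1a they were Jam3 (0.989), Ren1 (0.986) and Colgalt2 (0.968). Nphs1 measured 4.22 and 4.18 FPKM in PKD_FP and 2.06 and 3.82 in PKD_DMSO, against 10.43 and 8.02 in WT_FP and 7.95 and 6.12 in WT_DMSO. For Ace they were Slco1a6 (0.985), the brush border protease gene Mep1a (0.985) and Decr1 (0.981), and for Enpep Rpusd3 (0.982), Dhrs4 (0.979) and Cyp2j11 (0.978). Agt had none this close, with Insig1 (0.878), Cdc37 (0.852) and Serpina1f (0.846). At 0.9 or above were 161 genes for Ren1, 90 for Agtr1a, 125 for Ace, 235 for Enpep and 0 for Agt.

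Summed FPKM ran from 485924 to 572661 and was lowest in both PKD_DMSO libraries (507893 and 485924). FPKM is already scaled to read number, so these sums do not give the size of a library. Between 17856 and 18390 genes were above 0. WT_FP replicate 2 held 1611 FPKM in 8 adipocyte markers, against 113.1 to 367.3 in the other libraries, where most of the sum was Fabp4. Cfd measured 230.25 FPKM in WT_FP replicate 2, 41.51 and 46.65 in PKD_DMSO and 35.42 in PKD_FP replicate 2. In the remaining libraries it was 1.27 to 3.78 FPKM. Adipoq, Plin1, Cidec and Retn separated the same libraries, but Fabp4, Ucp1 and Lep did not. The Agt value of WT_FP replicate 2 was the highest of the 8 libraries, and its Atp6ap2 and Enpep values were the lowest of the WT libraries. The Ren1 and Agtr1a calls of the averaged comparison held without it. Read numbers are unknown, and no counting interval is given.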

How the data were processed

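Poly(A) RNA of whole kidney was measured in 8 libraries, grouped by the genotype and treatment in the labels. The values are FPKM as deposited by the authors, with 20245 entries per library; the unit was inferred from the values, since the headers name none. Per the submitters' processing notes, the tools Bowtie2 and DESeq2 and the build mm10 were used in a role not stated. The sources used here do not say how reads with several matches were treated or whether strand was used.

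Tests used log2(FPKM + 1) of the genes that reached 1 FPKM in 2 or more libraries (14391 of 20240, after 5 entries with repeated or blank symbols were left out). A model with 4 group means was fitted with limma 3.58.1 in R 4.3.3 (trend and robust empirical Bayes), with two-sided p-values adjusted by Benjamini-Hochberg over all genes and a threshold of 0.05. A permutation test of 2 against 2 libraries cannot go below 0.33. The test was tested on simulated data. The members and the lists of pathway genes and markers were chosen with earlier results of these data known. All members and any list gene past the threshold could be named, and Scnn1a, Mme, Aqp1 and genes near 0 are given by their values. A gene of the pathway list is not reported here and was left out of it. Alternatives were no filter, a pseudocount of 0.1, median-of-ratios scaling, quantile normalization, a replicate block, only the groups compared, no trend or robust setting, and each library left out.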

Additional observations from a re-analysis of the deposited data

How the results depend on the processing

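Across 15 alternatives, 49 gene results gave 735 values. Of these 646 kept their direction and side of the threshold, 75 lost the call in the same direction, 6 gained it and 8 changed sign. The number of the 6 tested genes called for PKD_DMSO over WT_DMSO, 2, became 1 with the replicate block and 1 with only the groups compared, and ranged from 0 to 2 with a library left out. For PKD_FP over WT_FP, 2 became 1 without the filter and 1 with the replicate block, and ranged from 0 to 2. Averaged over treatments, 2 ranged from 2 to 4, the 4 without WT_DMSO replicate 1. Agtr1a was the gene lost under the replicate block (adjusted p = 0.0531 under DMSO and 0.0654 under flavopiridol; limma), with only the groups compared (0.0699) and without the filter (0.0542). What the replicate numbers stand for is not stated in the labels. Deviations of same-numbered libraries correlated at −0.515 to 0.485 over the 6 pairs of groups. With 2 libraries a group, these values cannot show whether same-numbered libraries were paired. Nln, Ptgir and Rbpj lost the averaged call under the block. With a library left out, values that changed sign spanned −0.091 to 1.11 for Ren1 (PKD_FP over PKD_DMSO), −0.36 to 0.84 for its interaction, −0.42 to 0.50 for Agtr1a (PKD_FP over PKD_DMSO), and, in PKD_DMSO over WT_DMSO, −1.08 to 0.015 for Ace and −0.21 to 0.41 for Atp6ap2. With median-of-ratios scaling the Agtr1a value was −0.022, and in PKD_DMSO over WT_DMSO the Agt value was −0.032 and the Atp6ap2 value −0.049. None of these values was called, and the cause was not tested. Median-of-ratios scaling moved the median of all genes under DMSO to −0.01, against 0.12 unscaled. With 2 libraries a group, a difference smaller than the printed intervals could not be resolved.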
